A study of Mus musculus with 15 samples.

Results

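Krüppel-like factors are zinc-finger transcription factors that bind CACCC boxes and GC-rich boxes in promoters, and several of them set the state of endothelial and smooth muscle cells in arteries. The data describe 10 of their genes in the mouse aorta, Klf2, Klf3, Klf4, Klf5, Klf6, Klf7, Klf9, Klf10, Klf13 and Klf15. Each gene was read from the probe set that carries its symbol and no other. Each of the 10 genes had 1 such probe set, of 15095 probe sets with deposited values and of 12848 genes with a probe set of their own among these.

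The aortas came from 15 mice of strain C57BL6, 2 months old, whose osmotic minipumps delivered saline (vehicle, n = 7) or angiotensin II (AngII, n = 8) at 1 µg/kg/min for 3 weeks, and no other allele or agent is named. AngII raises blood pressure and loads the vessel wall. Each mouse gave 1 Affymetrix array, and the whole aorta down to the iliac bifurcation was taken after fat had been removed by dissection. A log2 signal is the deposited array intensity on the log2 scale, so a difference of 1 is a doubling, and signals of different genes are not set against each other because their probes differ.

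In blood vessels KLF2 and KLF4 are induced in the endothelium by laminar flow, through the kinases MEK5 and ERK5 and the MEF2 factors, and keep it anti-inflammatory and antithrombotic. KLF4 also represses contractile genes in smooth muscle, where KLF5 promotes growth. KLF9 and KLF15 respond to glucocorticoids and to the circadian clock in several tissues, and KLF15 opposes hypertrophy and fibrosis in the heart. KLF10 is an early target of TGF-beta, KLF3 recruits the CtBP corepressors, and KLF13 was first described as an activator of the chemokine gene RANTES in T cells.

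The promoters of Klf2, Klf4, Klf9 and Klf15 are shown because these genes form the pairs that varied most closely together between mice by Pearson r. By Spearman rho Klf3 with Klf7 (0.864) came before Klf2 with Klf4 (0.793). Each sequence runs from 250 bases before to 50 bases after the start of the gene, 5′ to 3′ on the strand of the gene, from RefSeq for the GRCm38.p6 assembly. Capitals mark E-boxes (CACGTG, the element bound by the clock factors CLOCK and ARNTL) and a MEF2-type pattern (CTA and TAG with 4 bases between them). For Klf15 the start in that table lies downstream of the outermost start of the annotated gene, so its positions refer to this inner start. The coordinates are chr8:72318812-72319111 for Klf2 (plus strand), chr4:55532426-55532725 for Klf4 (minus strand), chr19:23140976-23141275 for Klf9 (plus strand) and chr6:90462326-90462625 for Klf15 (plus strand).
Klf2: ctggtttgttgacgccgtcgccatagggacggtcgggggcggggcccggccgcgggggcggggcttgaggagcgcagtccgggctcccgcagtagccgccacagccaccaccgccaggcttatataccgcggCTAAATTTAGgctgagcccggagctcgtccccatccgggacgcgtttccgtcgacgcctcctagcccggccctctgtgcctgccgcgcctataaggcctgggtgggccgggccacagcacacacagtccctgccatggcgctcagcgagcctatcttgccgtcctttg
Klf4: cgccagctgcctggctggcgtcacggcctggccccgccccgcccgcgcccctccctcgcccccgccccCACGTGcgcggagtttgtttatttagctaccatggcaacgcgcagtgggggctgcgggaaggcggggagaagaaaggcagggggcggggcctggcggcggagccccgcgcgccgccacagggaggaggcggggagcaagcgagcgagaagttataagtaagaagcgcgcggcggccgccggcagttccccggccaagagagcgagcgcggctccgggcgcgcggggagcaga
Klf9: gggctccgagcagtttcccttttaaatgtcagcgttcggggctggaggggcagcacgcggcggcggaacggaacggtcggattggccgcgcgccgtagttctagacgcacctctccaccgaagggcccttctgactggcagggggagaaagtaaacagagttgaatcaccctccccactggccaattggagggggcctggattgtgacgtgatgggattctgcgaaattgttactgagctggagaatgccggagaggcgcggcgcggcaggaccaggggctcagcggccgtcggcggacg
Klf15: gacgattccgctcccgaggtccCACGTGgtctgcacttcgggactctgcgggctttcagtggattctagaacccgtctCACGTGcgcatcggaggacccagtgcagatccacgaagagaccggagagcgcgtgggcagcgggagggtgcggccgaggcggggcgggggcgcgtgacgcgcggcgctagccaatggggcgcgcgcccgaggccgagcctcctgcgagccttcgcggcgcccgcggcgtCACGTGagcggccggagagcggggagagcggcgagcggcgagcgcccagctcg

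Promoters of 8 of the 10 genes were matched by symbol, and those of Klf5 and Klf10 were not. Both strands were searched for each motif. The Klf15 promoter held 3 E-boxes, which begin at positions -228, -172 and -3 from the start. The Klf4 and Klf6 promoters held 1 each, and the other 5 held none, against 7.15% of all 32851 promoters of the same length with an E-box. The MEF2-type pattern was found in the Klf2 promoter alone, at position -118, and in 3.69% of all promoters. The CACCC letters, which the family itself binds, were in 6 of the 8 promoters and in 57.5% of all, and the GC box GGGCGG was in 7 of the 8 and in 35.7% of all. None of the E-boxes and MEF2-type patterns overlapped another motif, while a CACCC box and a GC box shared a base in the Klf3 and Klf13 promoters. A match of letters is a description of the window and not evidence of a bound site.

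Pairs of arrays correlated at r from 0.925 to 0.985 over all probe sets. The codes in the sample descriptions fall into 2 naming series. Series A holds 2 vehicle arrays and 3 AngII arrays, series B holds 5 of each, and within-series values are given for the 10 genes and for the called genes of the lists. The mean log2 signal of 6 smooth muscle markers was 12.2 to 12.7 in vehicle and 11.9 to 12.5 in AngII arrays, and all 6 had a lower mean with AngII (median log2 fold change -0.17), with none called. The mean of 10 adipocyte markers ranged from 7.66 to 10.5 in vehicle and from 8.12 to 10.4 in AngII arrays. All 10 had a higher mean with AngII (median log2 fold change 0.60), and none was called. Of all probe sets 47.4% had a log2 fold change above 0, with a median of -0.01. Of 6 fibroblast markers Lum and Dpt were called higher with AngII, and of 6 macrophage markers Cd68 and Mpeg1, by limma at an adjusted p under 0.05, where 2.42% of all probe sets were called higher. The part of these cell types in the results below was not tested beyond the covariates given. The cardiac troponin genes Tnni3 and Tnnt2 were at 10.7 and 11.3 in vehicle 1 and at 9.88 and 10.6 in AngII 1, against at most 7.15 and 8.85 in the other arrays. Klf13, Klf6 and the series difference of Klf9 are also given without these 2 arrays. Other values moved without them as well, such as the log2 fold change of Klf15 from -0.32 to -0.40, and not all are given.

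None of the 10 genes was called higher or lower with AngII. Of all 15095 probe sets 2.42% were called higher and 2.91% lower, so a count of 0 of 10 is near the background. At an unadjusted p under 0.05 from limma there were 3 of the 10 genes, Klf2, Klf7 and Klf13, against 21.9% of all probe sets. By significance analysis of microarrays (SAM) none of the 10 was at q = 0, and 226 probe sets were. The signs were divided, with 5 genes higher and 5 lower, where 47.4% of all probe sets were above 0. The median log2 fold change was -0.06 against -0.01 for all probe sets, and the median absolute change was 0.17 against 0.10 for all. In each of the 10 genes the vehicle and AngII arrays overlapped. The share of all probe sets without such overlap was not taken, so this count has no background beside it. In whole tissue a lower signal from fewer cells of a type and one from less RNA per cell cannot be told apart.

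**Figure D1:**
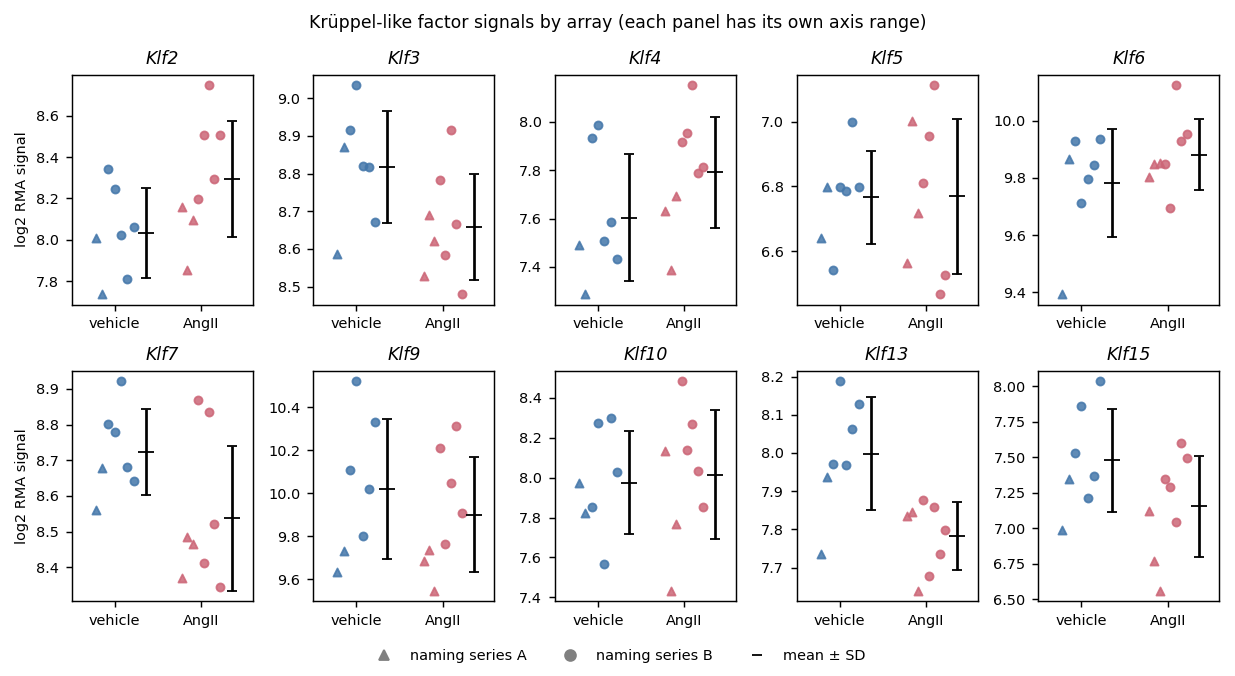
Log2 RMA signal of each of the 10 Krüppel-like factor genes in every array, by group, with the mean and SD of 7 vehicle and 8 AngII arrays beside the points and the naming series shown by the marker. All 8 AngII arrays lie below the vehicle median for Klf13, and 6 of 8 lie below the lowest vehicle array for Klf7.

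Klf13 came closest to a call. Its log2 signal ran from 7.74 through a median of 7.97 to 8.19 in vehicle arrays and from 7.64 through 7.82 to 7.88 in AngII arrays. All 8 AngII arrays were below the vehicle median, and 2 of them were below vehicle 1, the lowest vehicle array. The mean was 8.00 ± 0.148 (SD, n = 7) under vehicle against 7.78 ± 0.0886 (SD, n = 8) under AngII, and the log2 fold change was -0.21 with a 95% interval from -0.35 to -0.08. This is -13.8% in linear signal, and limma gave an adjusted p of 0.0684. For this gene alone, before any adjustment, the exact two-sided permutation test over all assignments of the arrays gave p = 0.00528, where the smallest possible p is 0.000155. Of the 10 genes only Klf13 was under 0.05 by this test. Klf2 and Klf7, which were under 0.05 by limma before adjustment, had exact permutation p = 0.0690 and 0.0567. By SAM the q of Klf13 was 1.94%, the lowest of the 10 genes, and the next were 11.5% for Klf2 and Klf7.

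Klf13 was called in some other fits. Without vehicle 1, the vehicle array with the lowest value, the log2 fold change was -0.26 (adjusted p = 0.0183 from limma), and without the 2 arrays with high cardiac troponin signals, an alternative chosen after seeing the data, it was -0.27 (adjusted p = 0.0254 from limma). With array weights it was -0.24 (adjusted p = 0.0245 from limma). When any other single array was left out, Klf13 was not called (adjusted p up to 0.132 from limma). In naming series B it was -0.27 (adjusted p = 0.0630) and in series A -0.06 (adjusted p = 0.879), both from limma. Among all 10 genes Klf13 also ran most closely against the adipocyte mean, with r = -0.684 (permutation p = 0.00426, adjusted 0.0852 over 20 relations) and rho = -0.725 (p = 0.00298, adjusted 0.0596) over 15 arrays after the group means were subtracted. Without the 2 arrays farthest from the median r was -0.828. With the adipocyte mean as a covariate the log2 fold change was -0.17 (adjusted p = 0.129 from limma), and with the smooth muscle mean it was -0.12 (adjusted p = 0.468).

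Klf15 and Klf9, the glucocorticoid- and clock-responsive members, were spread widely within each group. The log2 signal of Klf15 was 6.99, 7.37 and 8.03 at the lowest, median and highest vehicle array and 6.56, 7.204 and 7.60 at those of the AngII arrays. The range over all arrays was 1.47, the widest of the 10 genes, and AngII 3 and AngII 2 lay below every vehicle array. The difference of the means was -0.32 on the log2 scale with a 95% interval from -0.68 to 0.03 (adjusted p = 0.279 from limma), and no other member had a larger difference in size. Klf9 ran from 9.63 through 10.02 to 10.5 in vehicle and from 9.55 through 9.84 to 10.3 in AngII arrays. Its groups overlapped over most of their range, and the difference of -0.12 had a 95% interval from -0.42 to 0.18 (adjusted p = 0.659 from limma). It was -0.04 without vehicle 4, -0.07 without vehicle 7 or AngII 3 and -0.18 without vehicle 1.

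Klf2 and Klf4, the flow-induced endothelial members, had higher means with AngII, and neither passed the test. Klf2 was at 7.74, 8.02 and 8.34 in the lowest, median and highest vehicle array and at 7.85, 8.24 and 8.75 in those of the AngII arrays. There were 3 AngII arrays above every vehicle array, all of naming series B, and 7 of 8 were above the vehicle median. The log2 fold change was 0.26 with a 95% interval from 0.003 to 0.52, or 19.9% in linear signal (adjusted p = 0.223 from limma). Klf4 ran from 7.29 through 7.51 to 7.99 in vehicle and from 7.39 through 7.80 to 8.15 in AngII arrays. Again 7 of 8 AngII arrays were above the vehicle median, but the single AngII array above all vehicle arrays was AngII 6. The log2 fold change of Klf4 was 0.19 with a 95% interval from -0.06 to 0.44 (adjusted p = 0.374 from limma). With the smooth muscle mean as a covariate the values were 0.12 for Klf2 (adjusted p = 0.763 from limma) and 0.09 for Klf4 (adjusted p = 0.833).

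Klf3 and Klf7 had lower means with AngII. Klf7, a factor best known from neurons and adipocyte precursors, was at 8.56, 8.68 and 8.92 in the lowest, median and highest vehicle array and at 8.34, 8.48 and 8.87 in those of the AngII arrays. There were 6 of 8 AngII arrays below every vehicle array, while AngII 4 and AngII 6 lay within the upper part of the vehicle range. The log2 fold change was -0.19 with a 95% interval from -0.37 to -0.003 (adjusted p = 0.220 from limma). Klf3, the CtBP-binding repressor, ran from 8.59 through 8.82 to 9.04 in vehicle and from 8.48 through 8.64 to 8.92 in AngII arrays. In 7 of 8 AngII arrays it was below the vehicle median, and the log2 fold change was -0.16 with a 95% interval from -0.32 to 0.002 (adjusted p = 0.234 from limma). With the smooth muscle mean as a covariate Klf7 was -0.12 and Klf3 -0.09 (adjusted p = 0.678 and 0.714 from limma).

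Klf5, Klf6 and Klf10 differed least. Klf5, the growth-promoting member of smooth muscle, had a mean of 6.77 in both groups and a log2 fold change of 0.00 with a 95% interval from -0.21 to 0.21, and its AngII arrays ran both higher and lower than the vehicle arrays. Klf6, an injury-induced member, changed by 0.10 with an interval from -0.07 to 0.27. Its lowest value, 9.39, was that of vehicle 1, and the other 14 arrays lay between 9.69 and 10.1. Without vehicle 1 the log2 fold change of Klf6 was 0.03, without vehicle 1 and AngII 1 it was 0.05, and without AngII 6 it was 0.06. Klf10, the TGF-beta-induced member, changed by 0.04 with an interval from -0.26 to 0.34, and its lowest and highest arrays, at 7.43 and 8.48, were both AngII arrays.

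**Figure D2:**
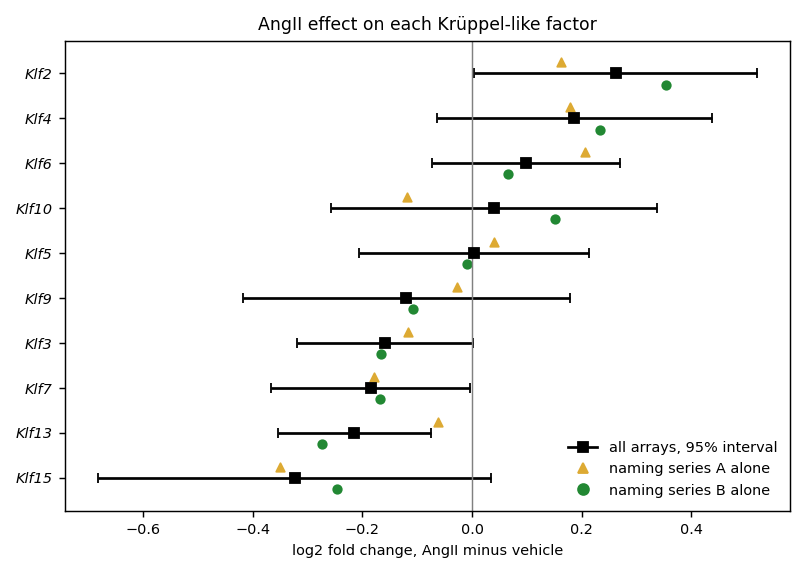
Log2 fold change of AngII against vehicle for each of the 10 genes (squares, with 95% intervals from limma over all 15 arrays), with the difference of means within naming series A (triangles) and B (circles). Intervals of Klf2, Klf7 and Klf13 do not include 0 before adjustment, and the values within the series differ in sign for Klf5 and Klf10.

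The AngII effect itself was not called different between the naming series for any of the 10 genes, with adjusted p from 0.729 to 0.988 for the interaction in limma. The series did differ in level. In a fit with the group, 3.05% of all probe sets were called between series, 2.4% lower in A. Of the 10 genes Klf9 was called, by -0.43 on the log2 scale in A against B (95% interval from -0.66 to -0.19, adjusted p = 0.0455 from limma). The 5 arrays of series A were at 9.55 to 9.73 and the 10 arrays of series B at 9.76 to 10.5, without overlap. This call ended when any single array but vehicle 5, AngII 5 or AngII 8 was left out, with differences from -0.39 to -0.45 and adjusted p from 0.0506 to 0.117, and without the 2 arrays with high cardiac troponin signals it was -0.41 (adjusted p = 0.224 from limma). All 10 genes had a lower mean in series A, down to a difference of only -0.04 for Klf5. The share of all probe sets with a lower mean in A was not taken, so this count has no background beside it. After Klf9 the lowest adjusted p were those of Klf15 (-0.49, the largest difference in size, adjusted p = 0.0660), Klf4 (-0.33, 0.0852) and Klf2 (-0.33, 0.102), all from limma.

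Of 8 endothelial markers 6 were also called lower in series A by limma, among them Pecam1 by -1.12 and Vwf by -1.06 on the log2 scale, and the mean of the 8 ran from 7.76 to 8.45 in A and from 8.43 to 9.24 in B. The clock genes Tef and Nr1d2 were called lower in A, by -1.06 and -1.08. With the endothelial mean as a covariate the series difference of Klf9 was -0.53 (adjusted p = 0.130 from limma), and with the clock gene Arntl as a covariate it was -0.15 (adjusted p = 0.692). These covariates were chosen after seeing the data.

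Between mice the 10 genes varied together in pairs. Of 45 pairs, tested by permutation after the group means were subtracted, 4 passed in both r and rho with Benjamini-Hochberg adjustment over the 45, and all 4 were positive. The median r over all 45 pairs was 0.37. Pairs of other genes were not taken through this test, so the count and the median have no background beside them. Klf2 and Klf4 had r = 0.856 (adjusted permutation p = 0.0018) and rho = 0.793 (adjusted p = 0.0100) over 15 arrays. The r was 0.759 without the 2 arrays farthest from the median and 0.747 with the means of the naming series subtracted as well. The same pair stood at 0.831 within the vehicle arrays and at 0.903 within the AngII arrays. Leaving out each array in turn gave r from 0.808 to 0.889.

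Klf9 and Klf15 had r = 0.829 (adjusted permutation p = 0.0063) and rho = 0.871 (adjusted p = 0.0016), with r = 0.777 without 2 arrays and 0.675 with the series means subtracted, and 0.920 within vehicle and 0.738 within AngII arrays. Klf3 and Klf7 had r = 0.787 (adjusted permutation p = 0.0084) and rho = 0.864 (adjusted p = 0.0016), with 0.690 and 0.763 by the same checks, and 0.626 within vehicle and 0.922 within AngII arrays. Klf9 and Klf13 had r = 0.700 (adjusted permutation p = 0.0342) and rho = 0.721 (adjusted p = 0.0354), with 0.766 and 0.646, and its r was 0.895 within vehicle but 0.385 within AngII arrays. Klf5 was the member least tied to the rest, and its highest r, with Klf3, was 0.44.

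**Figure D3:**
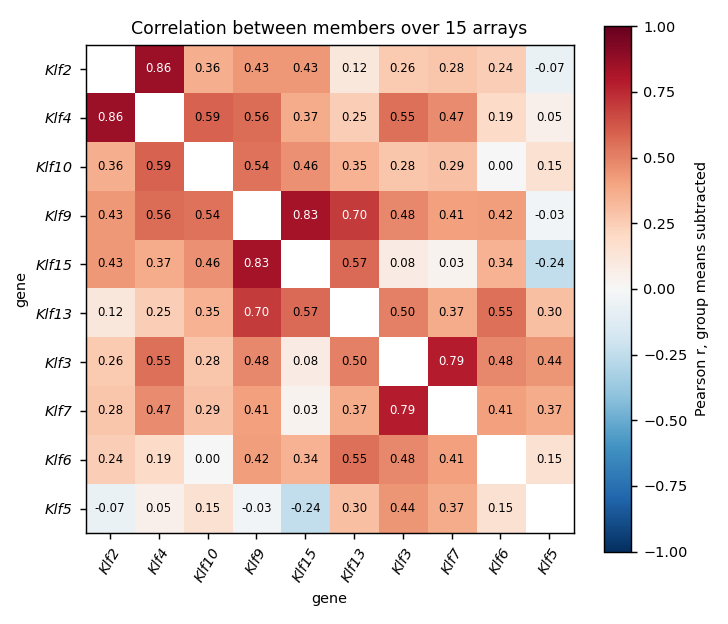
Pearson r between the log2 signals of each pair of the 10 genes over 15 arrays after each group's mean was subtracted. Klf2 with Klf4 (0.86), Klf9 with Klf15 (0.83), Klf3 with Klf7 (0.79) and Klf9 with Klf13 (0.70) are the pairs that passed the permutation test in both r and rho.

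Klf2 and Klf4 followed genes of the endothelium from array to array. Correlations in this and the next 2 paragraphs are over 15 arrays with group means subtracted, and since genes were ranked or lists compared by them they carry no test. With 8 endothelial markers the r of Klf4 was over 0.7 for 7 and the median was 0.825, from 0.778 for Vwf to 0.905 for Tie1, a receptor of endothelial cells. The exception was Kdr, the VEGF receptor, at -0.10. For Klf2 the r was over 0.5 for the same 7 markers, with a median of 0.736 and the highest value, 0.872, for Egfl7. Cdh5, the cadherin of endothelial junctions, was at 0.822 with Klf2 and at 0.839 with Klf4. With the series means subtracted these 2 values were 0.651 and 0.760. Pecam1, an adhesion protein of endothelial junctions, was at 0.699 with Klf2 and 0.783 with Klf4, and with the series means subtracted at 0.315 and 0.527. Within the 6 arrays of low Arntl described below, Klf2 and Pecam1 had an r of -0.19. Klf7 and Klf3 had an r over 0.5 with 5 of the 8 markers each, with medians of 0.599 and 0.612. For Klf9 there were 4 such markers, for Klf10 3, for Klf6 2 and for Klf15 1. The share of all genes past these cuts was not taken, so the counts have no background beside them.

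Among all genes the closest to Klf2 were Cavin2 (r = 0.897), a caveolar coat protein, Egfl7 (0.872) and Notch1 (0.869), a Notch receptor. The closest to Klf4 were Slc9a3r2 (0.934), a scaffold protein, Tmem255b (0.922) and Ptger4 (0.919), a prostaglandin E2 receptor. None of these 6 genes was called with AngII by limma, with adjusted p from 0.566 to 0.996. The endothelial mean itself was 8.60 ± 0.283 (SD, n = 7) under vehicle against 8.60 ± 0.495 (SD, n = 8) under AngII. With that mean as a covariate, chosen after seeing the data, the log2 fold change of Klf2 was 0.26 (adjusted p = 0.0704 from limma) and that of Klf4 was 0.18 (adjusted p = 0.108), against the lower values with the smooth muscle mean given above.

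**Figure D4:**
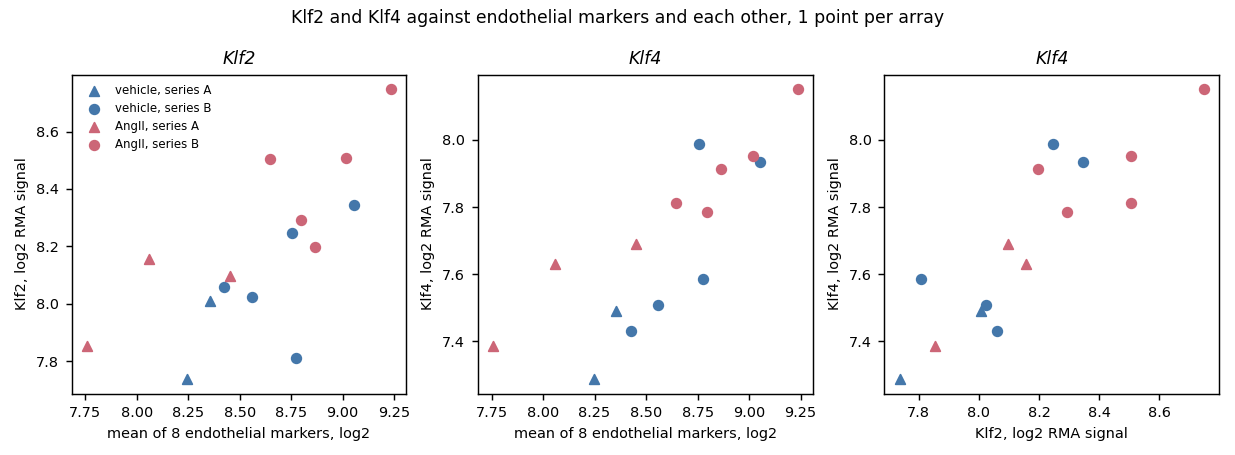
Log2 RMA signal of Klf2 and Klf4 against the mean log2 signal of 8 endothelial markers, and of Klf4 against Klf2, with 1 point per array (colours are groups, marker shapes are naming series). The 5 arrays of series A have endothelial means of 7.76 to 8.45 and AngII 6 is highest on all axes.

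Klf9 followed the clock genes. The 3 genes closest to it among all genes were Tef (r = 0.948), Dbp (0.942) and Nr1d2 (0.910), of which Tef and Dbp are clock-controlled transcription factors and Nr1d2 is the clock repressor REV-ERB-beta. Of 13 measured clock genes 8 had an r over 0.7 with Klf9, and Arntl, Npas2 and Clock, which belong to the opposite arm of the clock, were at -0.889, -0.772 and -0.696. Klf15 differed from Klf9 in sign for Cry1 alone, where r was 0.04 against -0.15, with an r over 0.7 for 7 clock genes and -0.853 for Arntl. Klf13 was next, at 0.825 with Nr1d1 and 0.685 with Dbp. Klf2, Klf3, Klf5, Klf7 and Klf10 had no clock gene past 0.5 in either direction. For these counts too the share of all genes past the cuts was not taken.

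The arrays fell into 2 sets by Arntl, whose log2 signal was 8.11 to 9.19 in 9 arrays and 5.73 to 7.14 in 6 arrays, with Dbp at 7.59 to 9.68 in the first and 10.3 to 10.99 in the second. These sets were read from the data and are not groups of the study. The set with high Arntl held 4 vehicle and 5 AngII arrays, the set with low Arntl held 3 of each, and all 5 arrays of series A were in the first. The time of day at which tissue was taken is not given in the sources used here. Klf9 ran from 9.55 to 10.05 where Arntl was high and from 9.91 to 10.5 where it was low. Klf15 ran from 6.56 to 7.37 and from 7.35 to 8.03, so that its 2 ranges barely met.

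Because the sets differ, r over all arrays holds the difference between them. So do the permutation p of the pairs, since the arrays were shuffled without regard to these sets or to the naming series. Within the 9 arrays of high Arntl the r of Klf9 with Dbp was 0.928, and within the 6 arrays of low Arntl it was 0.854. In the same order Klf9 was at 0.932 and 0.858 with Tef and at 0.904 and 0.390 with Nr1d2. With Arntl itself Klf9 was at -0.863 and -0.635. For Klf15 with Dbp the values within the sets were 0.353 and 0.491, and for Klf9 with Klf15 they were 0.547 and 0.481, each lower than over all arrays. Klf15 with Arntl was at -0.186 within the high set and at -0.976 within the low set. The r of Klf13 with Dbp was 0.815 and 0.722 within the sets. Klf2 with Klf4 gave 0.930 and 0.505, and Klf3 with Klf7 gave 0.846 and 0.785.

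With Arntl as a covariate, chosen after seeing the data, the AngII difference of Klf13 was -0.21 (adjusted p = 0.0497 from limma) and that of Klf15 was -0.32 (adjusted p = 0.0646). The clock genes were not themselves called with AngII. None of the 13 passed, 6 were higher and 7 lower, with a median log2 fold change of -0.05 against -0.01 for all probe sets. Arntl changed by 0.04 and Dbp by 0.11 on the log2 scale.

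**Figure D5:**
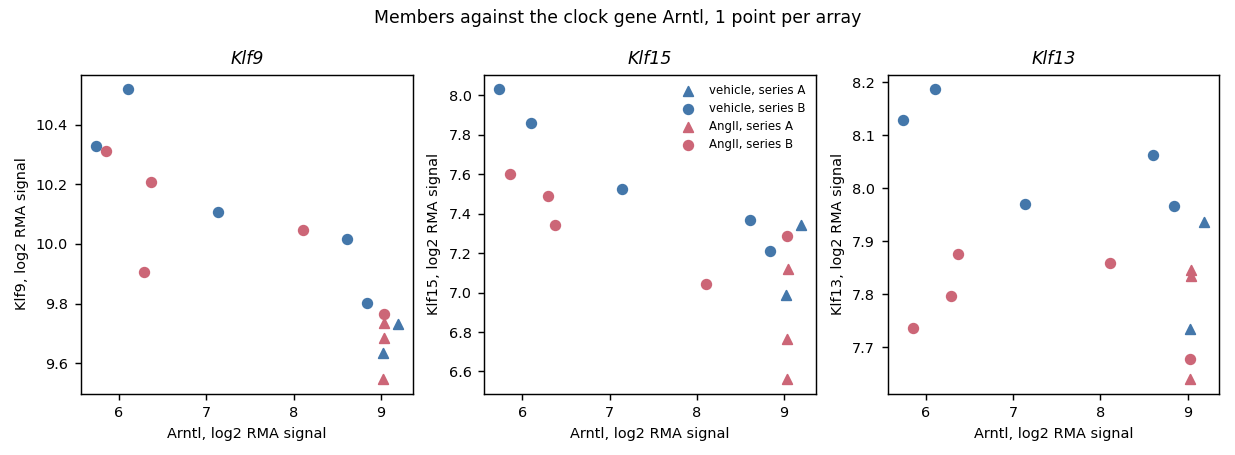
Log2 RMA signal of Klf9, Klf15 and Klf13 against that of the clock gene Arntl, with 1 point per array (colours are groups, marker shapes are naming series). Arntl lies at 5.73 to 7.14 in 6 arrays and at 8.11 to 9.19 in 9, and Klf15 ends at 7.37 in the second set and starts at 7.35 in the first.

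Klf7 was closest to Smarca2 (r = 0.912), an ATPase of chromatin remodelling complexes, then to Gulp1 (0.910) and Cd2ap (0.909), and Klf3 to Gabpb1 (0.926), a subunit of the GA-binding protein, then to Pcdh9 (0.895) and Crip2 (0.890). Klf13 was closest to Pcnt (0.937), a centrosomal scaffold protein, which was called lower with AngII by -0.29 on the log2 scale (adjusted p = 0.0295 from limma). The next to Klf13 were Tbc1d10a (0.923) and Mettl21a (0.922). For Klf15 the 3 closest were Trip10 (0.917), Acap2 (0.907) and Baz1b (0.901), and for Klf6 they were Sec14l2 (0.886), Phf3 (0.868) and Itsn2 (0.867). Klf5 stood closest to Ncoa5 (0.860), Antxr1 (0.846) and Castor1 (0.831), and Klf10 to 4931440P22Rik (0.817), Gm10865 (0.803) and Tor1a (0.796). Ncoa5, a nuclear receptor coactivator, was called lower by -0.24 (adjusted p = 0.0311 from limma).

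Among the relatives and partners of the 10 genes few were called. Of 16 other genes of the KLF and SP family 10 were measured and none was called, against 5.33% of all probe sets called in either direction. Their median log2 fold change was -0.12, and the largest were -0.39 for Klf12, a repressor (adjusted p = 0.0695 from limma), and -0.33 for Sp4 (adjusted p = 0.0617). None of 12 corepressors, coactivators, ubiquitin ligases and other partners of KLF proteins was called, with Sin3a at -0.23 (adjusted p = 0.0654 from limma). In the kinase and MEF2 relay that induces Klf2 and Klf4, 1 of 7 genes was called lower and none higher, where 2.91% of all probe sets were called lower. This was Mef2c, a MADS-box factor, at 9.58 ± 0.178 (SD, n = 7) under vehicle against 9.15 ± 0.259 (SD, n = 8) under AngII (log2 fold change -0.43, adjusted p = 0.0334 from limma). Its call ended when any of vehicle 2, 4, 5 and 7 or AngII 3, 5, 7 and 8 was left out (-0.37 to -0.43, adjusted p from 0.0539 to 0.0806), and with the smooth muscle mean as a covariate it was -0.20 (adjusted p = 0.300). In series B alone it was -0.52 (adjusted p = 0.0607 from limma) and in series A alone -0.29 (adjusted p = 0.588).

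None of 13 flow-responsive endothelial genes was called, including Nos3, the endothelial nitric oxide synthase, at -0.24 (adjusted p = 0.634 from limma), and Thbd, thrombomodulin, at 0.15 (adjusted p = 0.487). Of the 13 genes 9 were above 0, with a median log2 fold change of 0.12. Among all probe sets 47.4% were above 0, with a median of -0.01. The largest change was 0.59 for Vcam1 (adjusted p = 0.145 from limma). Nos3 and Vcam1 were also called lower in series A than in B, by -0.95 and -0.85. Of 18 contractile genes 2 were called lower and none higher, with 1 of the 18 above 0 and a median of -0.25, where 2.91% of all probe sets were called lower and their median was -0.01. They were Synpo2, an actin-bundling protein (-0.55, adjusted p = 0.0425 from limma), and Itga8, the alpha 8 integrin (-0.44, adjusted p = 0.0399). The call of Synpo2 held without vehicle 1 or AngII 1, 2 or 6 and ended without any other array (adjusted p from 0.0573 to 0.0951), and that of Itga8 held without vehicle 1 or AngII 2, 4, 5 or 6 and ended without any other (adjusted p from 0.0518 to 0.0917). In series B alone Synpo2 was -0.80 (adjusted p = 0.0353 from limma) and Itga8 -0.57 (adjusted p = 0.0607), and in series A alone they were -0.07 and -0.19 (adjusted p = 0.914 and 0.665). With the mean of the 6 smooth muscle markers as a covariate Synpo2 was -0.19 (adjusted p = 0.251 from limma) and Itga8 -0.18 (adjusted p = 0.328). All 6 markers are themselves among the 18 contractile genes and had lower means with AngII. This covariate therefore takes up part of the group difference, and the fit cannot tell the change of these genes from that of the list.

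Lists of genes known as targets of single members were read in the same way. Of 7 KLF5 targets Plau, the urokinase activator of plasminogen, was called higher by 0.60 (adjusted p = 0.0159 from limma) and none lower. Of all probe sets 2.42% were called higher. The 7 targets had a median log2 fold change of 0.31 with 6 above 0, while Klf5 itself was at 0.00. Pdgfb had the next lowest adjusted p (0.41, adjusted p = 0.0561 from limma). None of 6 measured metabolic targets of KLF15 was called, nor any of 12 glucocorticoid-induced genes or 12 early targets of TGF-beta. The largest changes in the glucocorticoid and TGF-beta lists were 0.83 for Lcn2 (adjusted p = 0.0745 from limma) and 0.71 for Ltbp2 (adjusted p = 0.0615). The medians of these lists were 0.11 and -0.07. Of 21 immediate early genes, the class to which Klf2, Klf4, Klf6 and Klf10 are often counted, the nuclear receptor Nr4a3 (0.74, adjusted p = 0.00788 from limma) and the zinc-finger factor Egr2 (0.40, adjusted p = 0.0185) were called higher and none lower, again beside 2.42% of all probe sets. The calls of Plau, Nr4a3 and Egr2 held when any single array was left out and ended in naming series B alone, where the changes were 0.44, 0.63 and 0.28 (adjusted p from 0.0607 to 0.166). In series A alone, with 5 arrays, they were 0.87, 0.95 and 0.63 (adjusted p from 0.201 to 0.240). With the smooth muscle mean as a covariate the calls of Plau (adjusted p = 0.0961 from limma) and Egr2 (0.114) ended and that of Nr4a3 held (0.0379).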

How the data were processed

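RNA of 15 mouse aortas was measured on Affymetrix arrays, 1 per mouse. The authors corrected the background, normalized and summarized probe sets by RMA in Expression Console and deposited log2 intensities. No counts exist, and the number of arrays limits the precision. Labels and methods write the strain and the extraction kit differently. No filter was applied. Groups came from the sample labels. AngII was compared with vehicle by limma 3.58.1 (R 4.3.3) over all 15095 probe sets, with Benjamini-Hochberg adjustment and a threshold of 0.05. The methods' SAM (100 permutations), the naming series, covariates and left-out arrays were alternatives. The fit was tested on simulated data. Single genes were tested by exact permutation, and pairs by 100000 resamples. A gene was read from its probe set of highest mean. All 10 members are named, with the called genes of each list (at most the 5 largest changes) and the 3 genes closest to each member. The members and lists were chosen with earlier results of these data known. Replicate numbers were not taken to pair the mice. The mice are separate animals. Adipocyte, smooth muscle, endothelial, fibroblast, macrophage, skeletal muscle, cardiac and Schwann cell markers were read, and T and B cell and erythroid markers had no probe set used here. Of 3 skeletal muscle and 2 Schwann cell markers none was called.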

Additional observations from a re-analysis of the deposited data

Results flagged for a closer look

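In vehicle 1 the log2 signal of Klf6 was 9.39, far below the other vehicle arrays, of which the next was at 9.71 and the highest at 9.94. The gap was 0.591 of the whole range of the 7 vehicle arrays, above the 95% limit of Dixon's test, 0.568. Such a value was looked for in 20 sets of arrays (10 genes in 2 groups), and chance marks about 1 in 20. Vehicle 1 was also one of the arrays with high cardiac troponin signals and one of the 3 that correlated least with the rest, and the part of either in this value was not tested.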

How the results depend on the processing

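Of 309 values of the 10 genes under other settings, 292 kept their direction and their side of the threshold, 4 of Klf13 passed it and 13 of Klf5 and Klf10 changed sign. Klf5 was -0.0099 in series B alone, -0.0377 with array weights, -0.00796 without the 3 arrays that correlated least, -0.0012354 after further quantile normalization and from -0.0457 to 0.0465 with single arrays left out. Klf10 was -0.119 in series A alone and from -0.0278 to 0.123 with single arrays left out. The count of the 10 genes called lower was 0, and 1 (Klf13) with array weights, with Arntl as a covariate and without vehicle 1 and AngII 1 (the latter 2 chosen after seeing the data), and from 0 to 1 with single arrays left out (1 without vehicle 1). None was called higher under any setting run. Probe sets called in all numbered 805, and 373 in series B, 8 in series A, 481 with the adipocyte mean as a covariate, 88 (67 higher and 21 lower) with the smooth muscle mean as a covariate, a count added after seeing the data, 1272 with array weights, 531 without the 3 least correlated arrays, 496 among probe sets above the median signal, 226 by SAM at q = 0 and 344 (without vehicle 5) to 1198 (without AngII 6) with single arrays left out. The cause of these differences was not tested.

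With the replicate number as a block 191 probe sets were called and none of the 10 genes, and the calls of Mef2c, Synpo2, Itga8, Egr2, Nr4a3 and Plau ended (adjusted p from 0.0663 to 0.163). Arrays with the same number had correlations of their deviations from -0.456 to 0.416, with 4 of 7 over 0.1, and 1 of 7 pairs was closest to its own number. The numbers were taken as names only. These correlations carry no test and cannot exclude a pairing. Other probe sets of the 10 genes could not be tried because each has 1, and the filter on the median signal leaves out Klf5.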
